A study of Mus musculus with 9 samples.

Results

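The data described here are CpG methylation levels at 10 genes that encode regulators of pluripotency in mouse embryonic stem cells (ESCs): *Pou5f1*, *Klf4*, *Klf5*, *Esrrb*, *Tfcp2l1*, *Nr5a2*, *Prdm14*, *Sall4*, *Lin28a* and *Tcl1*. The genes were chosen by name and by lying on chromosomes that the wild type (WT) table covers, and they are 10 of 14277 protein-coding genes of that part of the genome. The study compared WT, *Dnmt3a*-/- and *Dnmt3b*-/- J1 ESCs by whole genome bisulfite sequencing (WGBS), to separate what the de novo methyltransferases DNMT3A and DNMT3B each contribute to the methylation pattern. J1 is an ESC line of strain 129S4/SvJae, and all lines were grown without feeders in serum with leukemia inhibitory factor (LIF). Each genotype was sequenced as 3 libraries, which the authors merged into 1 table, so that every value below is 1 pooled value per genotype without a replicate error. The mutant lines are called *Dnmt3a* KO and *Dnmt3b* KO ESCs, or given as values without *Dnmt3a* or without *Dnmt3b*, and 3 levels in a row stand in the order WT, *Dnmt3a* KO, *Dnmt3b* KO. Whether the libraries of a genotype came from separate cultures or clones is not given in the sources used here.

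Median depth over covered CpGs was 22 reads in WT, 20 without *Dnmt3a* and 21 without *Dnmt3b*, and the windows of the 10 genes had between 16.2 and 26.0 reads per CpG. The *Dnmt3a* KO line was deepest at the 3 genes on chromosome 1 (*Tfcp2l1*, *Nr5a2* and *Prdm14*), with 23.0 to 26.0 reads per CpG. The labels of the lines were checked by missing sequence: 12 consecutive CpGs of *Dnmt3a* had no reads in *Dnmt3a* KO ESCs, and 30 CpGs of *Dnmt3b* had none in *Dnmt3b* KO ESCs. The promoters of *Pou5f1* and *Sox2*, which are free of methylation in pluripotent cells, were at 0.69% and 0.059% in WT ESCs. Those of *Esrrb*, *Nr5a2* and *Tcl1* were at 94.1%, 95.4% and 78.8%, against a median of 6.69% over the 10 genes. The 2 low promoters alone therefore do not establish the cell type. Over 13328402 CpGs of the shared part, mean methylation was 82.4% in WT, 50.3% without *Dnmt3a* and 75.5% without *Dnmt3b*.

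The pluripotency network is a set of transcription factors that bind to their own and to each other's enhancers and so keep ESCs undifferentiated. POU5F1 (OCT4) is its core factor, and the Krüppel-like factors, ESRRB, TFCP2L1, NR5A2, PRDM14 and SALL4 join it in the naive state that LIF supports, while LIN28A is an RNA-binding protein that blocks let-7 maturation and TCL1 is a co-activator of AKT signalling. Active promoters and enhancers of such genes carry little CpG methylation in ESCs, and methylation of their promoters accompanies silencing on differentiation.

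Methylation was averaged over CpGs that 3 or more reads covered in each line, within 1 kb of the transcription start site (TSS) of the longest isoform, over the gene body, over 20 kb upstream and over 5 kb downstream. A region is called lower in a mutant where its mean is more than 20 percentage points under WT. Intervals given for a difference are 95% Newcombe intervals of the difference in the share of methylated reads, which weights CpGs by depth, and they cover counting error only.

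Sequences are shown for the 4 start sites called lower in *Dnmt3a* KO ESCs (*Tcl1*, *Esrrb*, *Prdm14* and the upstream one of *Nr5a2*), with an unmethylated start site of *Nr5a2* and 2 upstream bins beside them, because they show how dense the CpGs behind these values are. They are taken from the mm9 reference, read 5′ to 3′ on the strand of the gene, with every CpG in capitals. The reference is from another mouse strain than J1, so single CpGs may differ in these cells. The first lines give the 250 bases before the TSS of *Tcl1* (chr12:106460948-106461197, minus strand) and of *Prdm14* (chr1:13117245-13117494, minus strand), with 7 CpGs each, and of *Esrrb* (chr12:87701817-87702066, plus strand), with 6 CpGs.
Tcl1 promoter: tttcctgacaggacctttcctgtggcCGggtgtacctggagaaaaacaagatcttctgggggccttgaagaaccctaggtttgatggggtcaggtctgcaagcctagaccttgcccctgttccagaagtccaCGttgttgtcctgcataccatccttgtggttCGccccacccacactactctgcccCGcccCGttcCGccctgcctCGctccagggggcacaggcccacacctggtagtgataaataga
Prdm14 promoter: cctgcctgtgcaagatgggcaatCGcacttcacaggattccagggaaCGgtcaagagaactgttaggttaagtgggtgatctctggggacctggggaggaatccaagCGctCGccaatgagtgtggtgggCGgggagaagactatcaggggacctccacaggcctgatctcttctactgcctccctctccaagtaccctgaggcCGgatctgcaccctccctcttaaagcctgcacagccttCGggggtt
Esrrb promoter: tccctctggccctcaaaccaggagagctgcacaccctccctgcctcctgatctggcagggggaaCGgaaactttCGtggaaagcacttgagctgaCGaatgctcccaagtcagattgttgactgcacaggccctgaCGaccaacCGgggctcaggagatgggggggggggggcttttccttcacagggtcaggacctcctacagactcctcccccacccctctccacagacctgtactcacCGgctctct
The next pair contrasts both annotated start sites of *Nr5a2*, the upstream one with 2 CpGs (chr1:138857005-138857254, minus strand) and the internal one with 6 CpGs (chr1:138850208-138850457, minus strand).
Nr5a2 upstream promoter: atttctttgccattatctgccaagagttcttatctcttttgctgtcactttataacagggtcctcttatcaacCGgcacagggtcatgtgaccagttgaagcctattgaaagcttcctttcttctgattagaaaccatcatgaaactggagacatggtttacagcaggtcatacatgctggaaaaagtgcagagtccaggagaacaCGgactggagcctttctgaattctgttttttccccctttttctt
Nr5a2 internal promoter: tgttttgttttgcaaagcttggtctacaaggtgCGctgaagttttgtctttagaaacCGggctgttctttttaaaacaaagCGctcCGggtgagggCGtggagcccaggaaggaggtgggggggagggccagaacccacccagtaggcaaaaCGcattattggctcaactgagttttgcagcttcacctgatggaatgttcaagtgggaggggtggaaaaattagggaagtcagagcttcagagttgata
The last pair is the most CpG-rich stretch of 300 bases within the upstream bin of lowest WT methylation of *Tcl1* (chr12:106463103-106463402, minus strand, 8 CpGs) and of *Pou5f1* (chr17:35641596-35641895, plus strand, 5 CpGs).
Tcl1 upstream bin: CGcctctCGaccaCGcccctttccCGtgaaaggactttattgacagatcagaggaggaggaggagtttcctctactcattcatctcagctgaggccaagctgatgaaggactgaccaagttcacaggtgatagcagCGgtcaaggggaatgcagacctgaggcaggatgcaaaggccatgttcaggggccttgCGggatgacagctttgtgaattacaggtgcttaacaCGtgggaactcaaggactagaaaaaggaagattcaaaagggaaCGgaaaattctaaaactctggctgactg
Pou5f1 upstream bin: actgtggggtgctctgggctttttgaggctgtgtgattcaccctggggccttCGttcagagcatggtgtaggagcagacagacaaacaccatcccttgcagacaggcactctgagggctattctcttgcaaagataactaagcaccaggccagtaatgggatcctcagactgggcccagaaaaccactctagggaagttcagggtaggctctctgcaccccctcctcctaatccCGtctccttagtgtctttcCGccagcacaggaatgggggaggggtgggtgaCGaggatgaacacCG
These windows were searched on both strands for the GC box GGGCGG, the octamer ATGCAAAT bound by POU factors and the extended half-site TCAAGGTCA bound by ESRRB and NR5A2. The GC box, which itself holds a CpG, was found at 2 places in the *Tcl1* promoter and at 1 in the *Prdm14* promoter, so that 2 of the 5 promoters printed hold it, near the 41.8% of 14519 promoters of the same length. The octamer and the half-site were not found in the 7 windows, and only 1.66% and 0.31% of those promoters hold them.

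Of the 10 start sites, 4 were called lower in *Dnmt3a* KO ESCs (*Esrrb*, *Nr5a2*, *Prdm14* and *Tcl1*), beside 41.4% of all protein-coding genes, and none was called (0 of 10) in the *Dnmt3b* KO line, beside 2.71% of all genes. These counts take 1 TSS per gene, that of the longest isoform. The other 6 start sites were under 20% in WT ESCs and could not be called by this rule. Of all genes at 20% or more in WT ESCs, 85.7% were called in *Dnmt3a* KO ESCs. The median of the 10 start sites was 6.69% in WT, 1.15% without *Dnmt3a* and 5.95% without *Dnmt3b*, and over all genes it was 18.2%, 5.13% and 12.8%.

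**Figure D1:**
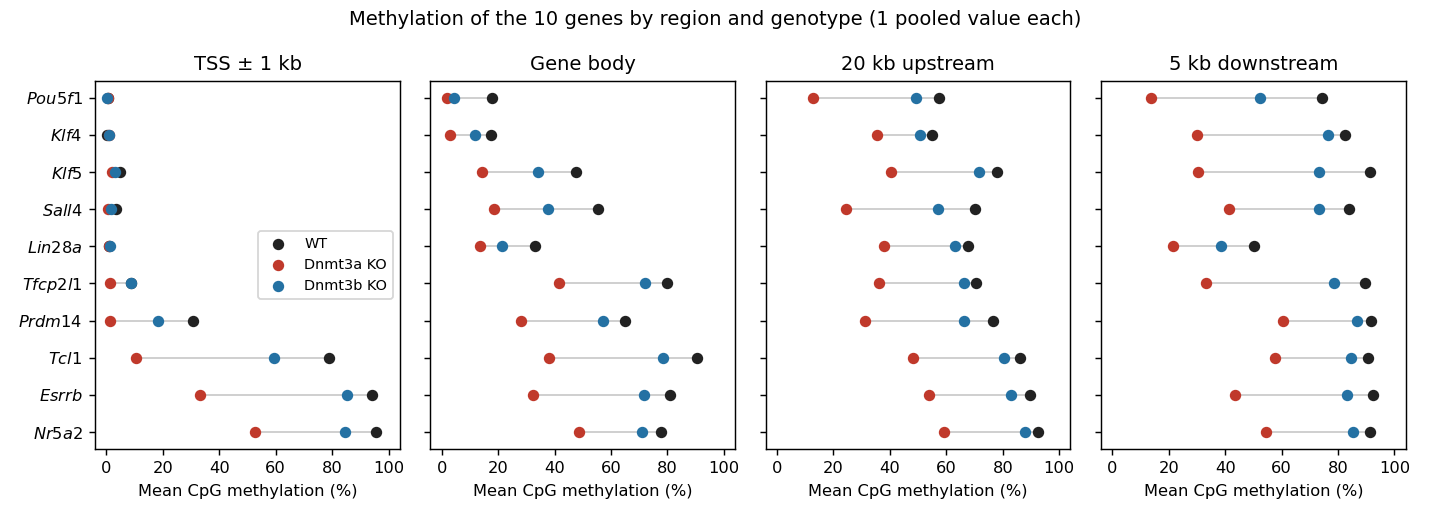
Mean CpG methylation (x axis, percent) of each of the 10 genes (rows) in WT and both KO lines, in 4 regions (panels), with 1 pooled value per point and a line joining the 3 genotypes of a gene. Within 1 kb of the TSS, *Pou5f1*, *Klf4*, *Klf5*, *Sall4*, *Lin28a* and *Tfcp2l1* lie under 10% in every genotype, and in the other regions the *Dnmt3a* KO value lies under both others for all 10 genes.

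*Pou5f1* (chr17:35642982-35647721, plus strand) encodes the POU factor OCT4. Within 1 kb of its TSS 38 CpGs were measured, at 0.69% in WT, 0.48% without *Dnmt3a* and 0.13% without *Dnmt3b*. The start site was thus nearly free of methylation in all lines, and the genotypes parted on both sides of it. The annotated start site farthest into the gene, that of Pou5f1-007 at 3.35 kb, was at 35.7%, 4.42% and 7.95%, and was called lower in both mutants. The 20 kb upstream were at 57.3% in WT, 12.7% without *Dnmt3a* and 49.1% without *Dnmt3b*, with intervals of -46.0 to -42.0 percentage points for *Dnmt3a* KO against WT and -9.46 to -4.94 for *Dnmt3b* KO. This *Dnmt3a* KO value was the lowest of the 10 upstream regions. The 5 kb downstream, which overlap exons of the neighbouring gene *Tcf19*, were at 74.4%, 13.6% and 52.4% in the same order, and were called lower in both mutants.

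Within the upstream region of *Pou5f1*, the bin from 1 to 1.5 kb before the TSS had the lowest WT level, 0% over 7 CpGs, shared with the bins from 1.5 and 3.5 kb, and 0% without *Dnmt3a* and 3.30% without *Dnmt3b*. All 5 CpGs printed from it were at 0% in every genotype, at 7.60 to 13.8 reads per CpG. The bin from 17 to 17.5 kb had the largest difference, from 97.9% in WT to 4.91% without *Dnmt3a* and 65.0% without *Dnmt3b*. Of the 29 bins 1 to 20 kb upstream with at least 3 CpGs, 8 were under 50% in WT ESCs, the most of any of the genes. They include 2 bins from 15 to 16 kb before the TSS, chosen for mention after their values were seen, which were at 36.4% and 46.7% in WT, 1.80% and 0.69% without *Dnmt3a* and 32.2% and 28.5% without *Dnmt3b*.

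*Klf4* (chr4:55540013-55545347, minus strand) encodes a Krüppel-like zinc finger factor downstream of LIF. Its start site has 8.95 CpGs per 100 bp, the most of the 10, and 132 of 179 CpGs there could be measured at 7.95 to 10.1 reads per CpG. They were at 0.15% in WT, 0.94% without *Dnmt3a* and 0.78% without *Dnmt3b*, with intervals of both differences that include 0. The gene body was at 17.5%, 2.77% and 11.8%. Its 20 kb upstream, at 54.8%, 35.4% and 50.8%, were the only ones of the 10 not called in *Dnmt3a* KO ESCs by the mean of CpGs, although the interval of the read share lay between -27.5 and -23.7 percentage points. The lowest WT bin there, at 1 to 1.5 kb with 20 CpGs, was at 0.71%, 0.69% and 1.22%. The largest difference was at 18 to 18.5 kb, with 91.8%, 36.3% and 80.4% over 3 CpGs.

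*Klf5* (chr14:99697910-99712624, plus strand) encodes a related factor that acts beside KLF4 in ESCs. Its start site was at 4.82% in WT, 1.96% without *Dnmt3a* and 3.16% without *Dnmt3b*. The direction was not stable in either mutant. The read share in *Dnmt3b* KO was higher than in WT ESCs, with an interval of 0.60 to 2.86 percentage points, and within 500 bp of the TSS the *Dnmt3a* KO difference was 0.31 in place of -2.85 percentage points. The CpG island over the TSS was at 0.55%, 0.79% and 0.37%, with an interval of 0.057 to 1.26 for *Dnmt3a* KO. Away from the TSS the gene was methylated, and its body was at 47.5%, 14.3% and 34.2% in WT and both KO lines. Upstream, the bin of lowest WT methylation, at 2.5 to 3 kb, was at 67.7%, 8.93% and 45.7%, and the bin with the largest difference, at 19.5 to 20 kb, was at 81.2%, 4.44% and 61.4%.

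*Sall4* (chr2:168573832-168592701, minus strand) encodes a spalt-like zinc finger factor that associates with OCT4. Its start site was at 3.36% in WT, 0.64% without *Dnmt3a* and 1.49% without *Dnmt3b*. Other annotated start sites of this gene gave other values. That of Sall4-007, a processed transcript that starts 0.742 kb upstream, was at 22.4%, 2.75% and 13.7%. Its *Dnmt3a* KO difference was -19.7 percentage points by the mean of CpGs. By read share it was -27.1, with an interval of -29.6 to -24.5. The start site of Sall4-006, 11.3 kb into the gene, was at 92.8%, 28.4% and 50.3%, so that it was called lower in both mutants, and the remaining 3 were under 5% in all lines. The gene body was at 55.3%, 18.6% and 37.5%, and the difference of -17.8 percentage points between *Dnmt3b* KO and WT was the largest of the 10 gene bodies in that line. Its upstream 20 kb were at 70.0%, 24.3% and 57.1%. The lowest WT bin there, at 13 to 13.5 kb, was at 45.6%, 7.12% and 26.8%, and the bin with the largest difference, at 19 to 19.5 kb, was at 91.2%, 10.5% and 55.1%.

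*Esrrb* (chr12:87702067-87862578, plus strand) encodes an orphan nuclear receptor. The TSS of its longest isoform was methylated in WT ESCs, at 94.1%, with 33.3% without *Dnmt3a* and 85.4% without *Dnmt3b*, and intervals of -61.9 to -53.9 and -11.7 to -5.48 percentage points. The 6 CpGs printed before it ranged from 84.0% to 100% in WT, from 6.67% to 50.0% without *Dnmt3a* and from 59.1% to 100% without *Dnmt3b*. The annotation also has internal start sites. Those of Esrrb-002 and Esrrb-006, 60.5 and 60.8 kb into the gene, lay by a CpG island of 1243 bp (6.53%, 1.12% and 2.29%) and were at 14.5% and 10.8% in WT, 4.65% and 1.95% without *Dnmt3a* and 11.2% and 6.17% without *Dnmt3b*. That of Esrrb-005, 109 kb into the gene, was at 38.4%, 3.67% and 26.0%. The start site of Esrrb-004, 143.3 kb into the gene, was at 72.3% in WT, 2.54% without *Dnmt3a* and 74.3% without *Dnmt3b*. The single TSS window therefore did not describe this gene. Its lowest WT upstream bin, at 16.5 to 17 kb, was at 46.5%, 19.9% and 28.3%, and the bin with the largest difference, at 13 to 13.5 kb, was at 96.0%, 24.6% and 81.5% over 3 CpGs.

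*Nr5a2* (chr1:138740161-138857004, minus strand) encodes LRH-1, a nuclear receptor that binds to the *Pou5f1* promoter region. Its longest isoform starts in CpG-poor sequence, with 8 CpGs within 1 kb of the TSS, at 95.4% in WT, 52.8% without *Dnmt3a* and 84.6% without *Dnmt3b*. With minus strand reads alone, the *Dnmt3b* KO difference of -10.8 percentage points became 1.5. The internal start site, 6.80 kb downstream, had 57 measured CpGs at 2.97%, 0.22% and 1.25%. The 2 printed CpGs before the upstream TSS were at 83.8% and 94.3% in WT ESCs, and the 6 before the internal TSS were at 0% in every genotype. *Nr5a2* had the highest level in *Dnmt3a* KO ESCs of the 10 gene bodies and upstream regions, at 48.8% and 59.2%. As a share of its WT level, the upstream region kept 64.0%, beside 64.6% at *Klf4*. No upstream bin of this gene was under 50% in WT ESCs. The lowest, at 19 to 19.5 kb, was at 76.7%, 30.1% and 73.3%, and the largest difference, at 3 to 3.5 kb, was from 95.5% in WT to 39.3% without *Dnmt3a* beside 100% without *Dnmt3b*.

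**Figure D2:**
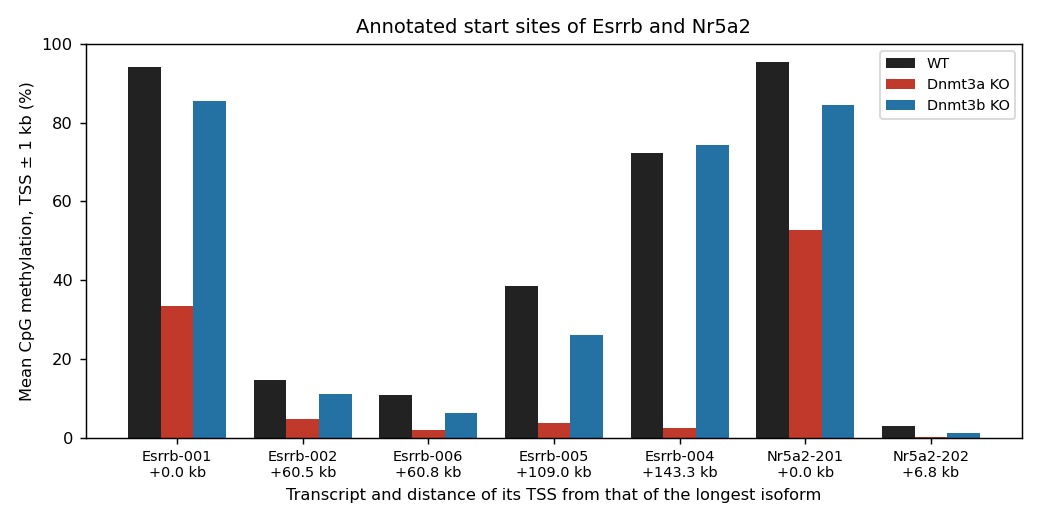
Mean CpG methylation within 1 kb of each annotated TSS of *Esrrb* and *Nr5a2* (y axis, percent) in the 3 genotypes, as 1 pooled value per bar, by transcript and distance from the TSS of the longest isoform. The first TSS of both genes is above 90% in WT ESCs, and Esrrb-002, Esrrb-006 and Nr5a2-202 are under 15%.

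*Tfcp2l1* (chr1:120524522-120581744, plus strand) encodes a grainyhead-family factor of the LIF pathway. Its start site was at 8.56% in WT, 1.16% without *Dnmt3a* and 8.73% without *Dnmt3b*. Only the *Dnmt3a* KO difference had an interval away from 0, at -10.4 to -6.30 percentage points. Its gene body was at 79.7%, 41.5% and 72.1%. The lowest WT upstream bin, at 4.5 to 5 kb, was at 44.6%, 27% and 49.6%, and the bin with the largest difference, at 3.5 to 4 kb, was at 98.9%, 30.6% and 87.4%.

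*Prdm14* (chr1:13103538-13117244, minus strand) encodes a PR-domain factor that is known to repress the de novo methyltransferases in naive cells. Its start site had an intermediate level in WT ESCs, 30.6% over 70 CpGs, with 1.14% without *Dnmt3a* and 18.1% without *Dnmt3b*. The means of CpGs differed from WT by -29.5 percentage points for *Dnmt3a* KO and -12.5 for *Dnmt3b* KO. The read shares differed by -26.3, with an interval of -28.9 to -23.9, and by -7.47, with an interval of -10.7 to -4.24. In the 250 bases printed, 6 of the 7 CpGs had enough reads in all lines, and they ranged from 16.7% to 75.0% in WT, from 0% to 5% without *Dnmt3a* and from 0% to 33.3% without *Dnmt3b*. Both mutants were thus low in the stretch just before the TSS, with means of 57.1%, 1.56% and 7.78% at 10.8 to 17.5 reads per CpG. The bin from 1 to 1.5 kb upstream, the lowest in WT ESCs, was at 31.6%, 1.31% and 25.4% over 22 CpGs, and the bin with the largest difference, at 19.5 to 20 kb in an exon of the neighbouring gene *Ncoa2*, was at 86.7%, 13.2% and 54.1%.

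*Lin28a* (chr4:133559245-133574756, minus strand) had a start site at 1.04% in WT, 0.99% without *Dnmt3a* and 1.41% without *Dnmt3b*. Its body was at 33.0%, 13.5% and 21.3%, a *Dnmt3a* KO difference of -19.5 percentage points that narrowly missed the 20-point rule. By read share this difference was -22.7, with an interval of -24.5 to -20.9. Its lowest WT upstream bin, 17 to 17.5 kb before the TSS with 17 CpGs, was at 8.66%, 7.07% and 6.50%, so that it was low in all lines. The bin with the largest difference, at 4.5 to 5 kb, was at 86.0%, 34.0% and 77.8%.

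*Tcl1* (chr12:106454967-106460947, minus strand) was methylated at its start site in WT ESCs, at 78.8% over 60 CpGs, with 10.3% without *Dnmt3a* and 59.5% without *Dnmt3b*. Among the start sites of the longest isoforms, these were the largest differences of the 10 genes in both lines. Their intervals were -73.0 to -67.3 and -20.6 to -13.2 percentage points. Within 500 bp of the TSS, *Esrrb* passed *Tcl1* in *Dnmt3a* KO ESCs, at -70.2 against -67.9 percentage points. Among the 7 CpGs printed, WT values ranged from 33.3% to 100%, *Dnmt3a* KO values from 0% to 22.2% and *Dnmt3b* KO values from 0% to 87.5%. Further upstream, at 2 to 2.5 kb, lay the lowest WT bin, at 31.3%, 0.28% and 20.5% over 11 CpGs. The 8 printed CpGs of that bin ranged from 11.8% to 90.9% in WT and from 0% to 3.12% in *Dnmt3a* KO ESCs. The adjoining bin, at 2.5 to 3 kb, had the largest difference, with 76.2%, 7.14% and 56.8%.

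**Figure D3:**
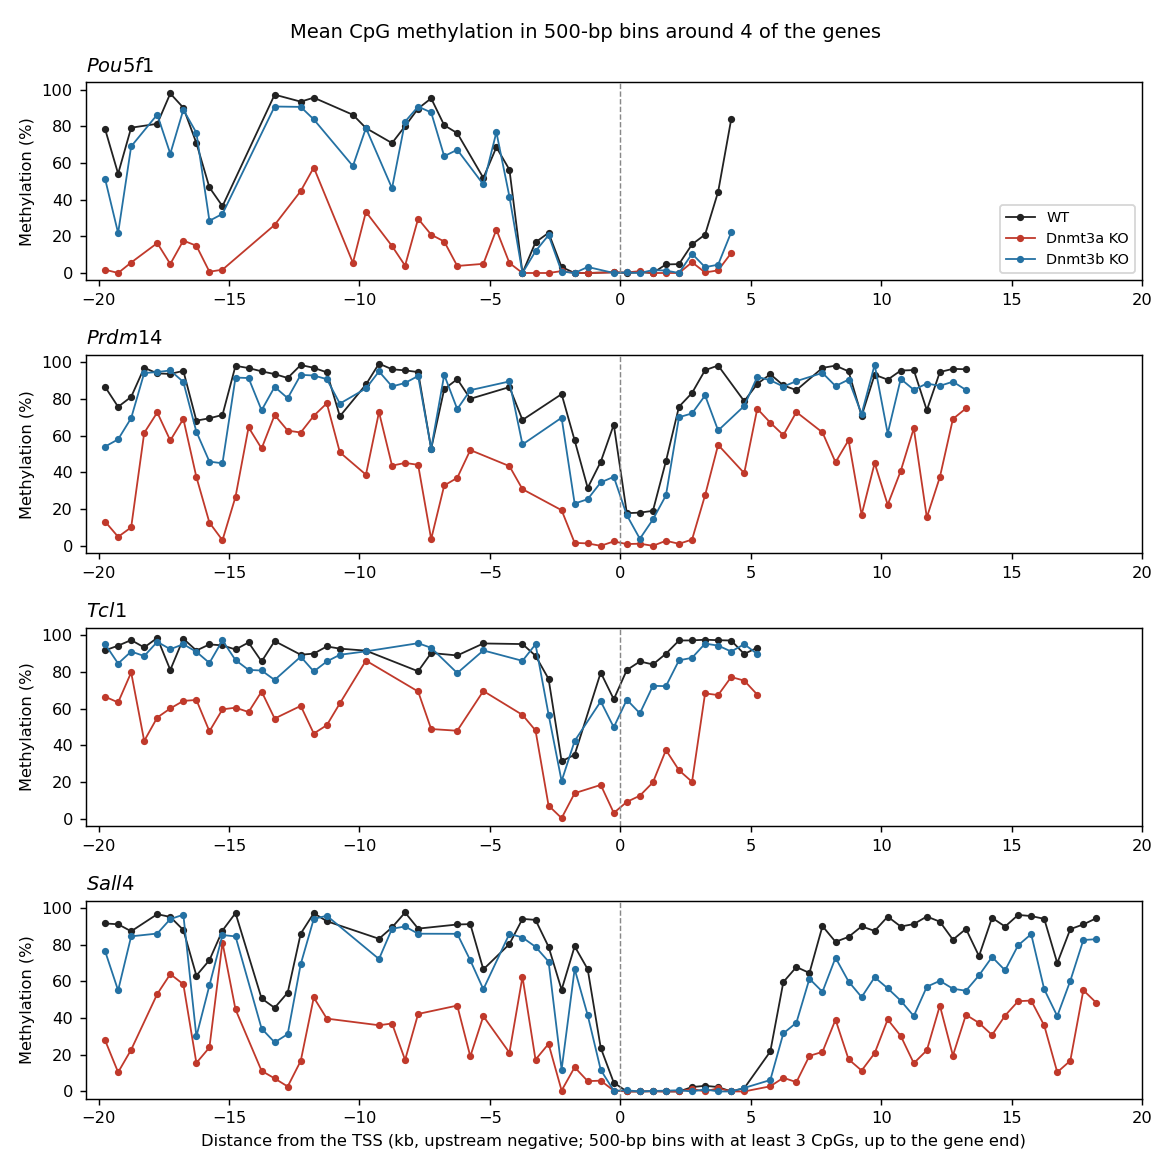
Mean CpG methylation (y axis, percent) in 500-bp bins with at least 3 CpGs, from 20 kb upstream of the TSS (x axis, kb) to the end of the gene, for *Pou5f1*, *Prdm14*, *Tcl1* and *Sall4* in WT and both KO lines, with 1 pooled value per point. The *Dnmt3a* KO line lies near 0 over the dips of the WT line before *Tcl1* and around the start of *Prdm14*, and in the last bins of *Pou5f1* both mutant lines lie far under WT.

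The length of the low-methylated run over each TSS was measured as the stretch in which a running mean of 5 CpGs stays under 10%. It was 4857, 8484 and 4857 bp at *Pou5f1* and 5790, 7071 and 6495 bp at *Sall4*. At *Klf5* it was 2268, 3976 and 2607 bp, and at *Tfcp2l1* 800, 4425 and 417 bp. *Prdm14* had nearly no run in WT ESCs, with 47 bp, and 5062 bp in *Dnmt3a* KO against 158 bp in *Dnmt3b* KO ESCs. A run over the *Tcl1* TSS was found only in *Dnmt3a* KO ESCs, with 905 bp. The lengths depended on the rule: with a running mean of 3 CpGs they were 920, 3108 and 1247 bp at *Klf5* and 57, 2599 and 37 bp at *Prdm14*. With a limit of 20% in place of 10%, the *Dnmt3b* KO run at *Tfcp2l1* was 858 bp against 856 bp in WT. At *Pou5f1* it was then 6710 bp against 5364 bp.

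*Klf4* and *Lin28a* did not share this order. The run at *Klf4* was 3029, 258 and 1818 bp, but with a limit of 20% it was 3247, 6288 and 4404 bp, so its direction depended on the limit. The run at *Lin28a* was 3334, 3153 and 3581 bp, and with a limit of 20% it was 3804, 4576 and 4676 bp. No run was found at *Nr5a2* in any line, and at the first TSS of *Esrrb* only a single CpG met the rule in *Dnmt3a* KO ESCs. Both limits, and the running mean of 3 CpGs, gave a longer run in *Dnmt3a* KO than in WT ESCs at *Pou5f1*, *Klf5*, *Sall4*, *Tfcp2l1*, *Prdm14* and *Tcl1*. For run lengths no share of all genes is given, so the longer runs cannot be read as particular to these genes.

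**Figure D4:**
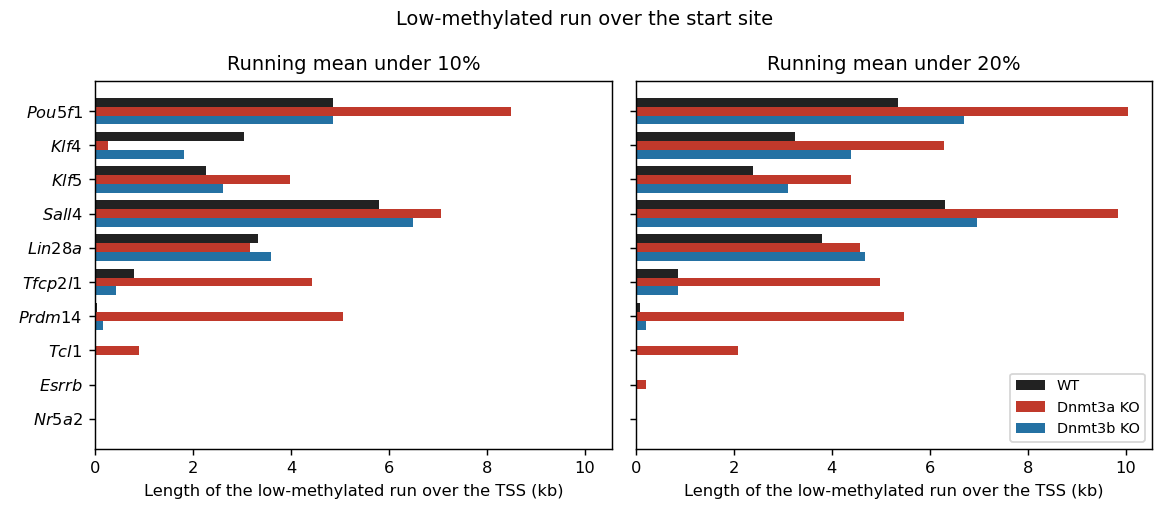
Length in kb (x axis) of the run of low methylation over the TSS of each of the 10 genes in WT and both KO lines, with the running mean of 5 CpGs under 10% (left) or 20% (right), 1 pooled value per bar. *Prdm14* and *Tfcp2l1* pass 4 kb in *Dnmt3a* KO ESCs only, and the order at *Klf4* differs between the panels.

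Over the whole gene bodies, 7 of the 10 genes were called lower in *Dnmt3a* KO ESCs, beside 89.2% of all genes, and 0 in *Dnmt3b* KO ESCs, beside 1.4%. The 3 bodies that were not called, *Pou5f1*, *Klf4* and *Lin28a*, had the lowest WT levels, from 17.5% to 33.0%. Without the first 1 kb of the body these 3 were called as well, at -22.2, -22.3 and -25.9 percentage points, and outside CpG islands the difference at *Klf4* was -66.5 over 38 CpGs. The *Pou5f1* body difference, -15.9 percentage points in the main run, was -7.77 with a minimum of 10 reads. With plus strand reads it was -7.55, and with minus strand reads -15.9. Outside CpG islands 2 of the 10 bodies were also called in *Dnmt3b* KO ESCs, *Klf4* at -23.7 and *Sall4* at -22.0 percentage points. No share of all genes is given for these alternatives. Over the 20 kb upstream, 9 of 10 were called in *Dnmt3a* KO ESCs, beside 95.5% of all genes, and 0 in *Dnmt3b* KO ESCs, beside 0.133%. Over the 5 kb downstream, 10 of 10 were called in *Dnmt3a* KO ESCs, beside 91.2% of all genes, and 1, that of *Pou5f1*, in *Dnmt3b* KO ESCs, beside 1.71%. The medians of the 10 genes were 60.2%, 23.3% and 47.3% for gene bodies and 73.6%, 37.1% and 66.2% for upstream regions in WT and both KO lines. All genes had medians of 80.3%, 45.9% and 72.7% for gene bodies and 77.1%, 43.0% and 69.5% for upstream regions. Compared directly, *Dnmt3a* KO lay under *Dnmt3b* KO ESCs in 10 of 10 gene bodies, upstream and downstream regions, each with an interval under 0, and at 7 of 10 start sites with such an interval. Of all genes, such an interval was found for 97.5% of gene bodies, 100% of upstream regions after rounding (14269 of 14271), 99.5% of downstream regions and 83.7% of start sites.

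Among the 297 upstream bins of the 10 genes, 259 (87.2%) were called lower in *Dnmt3a* KO ESCs, near the 84.4% of such bins of all genes, and 23 (7.74%) in *Dnmt3b* KO ESCs, against 10.3%. Bins under 50% in WT ESCs numbered 21 (7.07%), against 7.20% of bins of all genes. Their medians were 28.7% in WT, 1.31% without *Dnmt3a* and 19.2% without *Dnmt3b*, and those of all genes were 16.5%, 1.63% and 7.55%. Bins with a level above WT by any amount numbered 0 of 297 in *Dnmt3a* KO ESCs, beside 0.781% of bins of all genes, and 70 (23.6%) in *Dnmt3b* KO ESCs, beside 17.7%.

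Exons and introns more than 1 kb from the TSS were set apart, a split whose background was computed after the values of the 10 genes were seen. In *Dnmt3b* KO ESCs the exons of 3 of 10 genes were called lower, beside 5.6% of all genes, and the introns of 0, beside 3.12%. The exons of *Pou5f1*, with 19 CpGs, were at 58.6% in WT, 5.32% without *Dnmt3a* and 12.0% without *Dnmt3b*, so that both mutants lay far below WT. Its introns were at 9.81%, 1.36% and 3.60%. Over the whole *Pou5f1* body the *Dnmt3b* KO difference was -13.4 percentage points, and -6.84 with a minimum of 10 reads. With plus strand reads it was -6.19, and with minus strand reads -12.9. *Sall4* exons were at 89.2%, 32.2% and 58.3% over 117 CpGs, and *Lin28a* exons at 90.7%, 46.5% and 67.4% over 40 CpGs. The introns started lower in WT ESCs, at 51.9%, 16.7% and 35.8% in *Sall4* and at 29.0%, 8.93% and 15.9% in *Lin28a*. The other 7 genes had exon differences between *Dnmt3b* KO and WT ESCs from -18.6 percentage points at *Klf5* to -6.17 at *Tcl1*, and the median of all genes was -7.44.

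In *Dnmt3a* KO ESCs, the exons of 10 of 10 genes were called lower, beside 93.8% of all genes, and the introns of 9, beside 97.2%. *Pou5f1* introns were the exception, being already low in WT ESCs. The 21 exonic CpGs of *Tcl1* were at 95.8% in WT and 74.4% in *Dnmt3a* KO ESCs, and its introns were at 92.7% and 41.8%. Without *Dnmt3b* the exonic difference exceeded the intronic one in 7 of 10 genes, against 51.2% of all genes, and without *Dnmt3a* in 5 of 10, against 42.6%. These comparisons are in percentage points and do not allow for the lower WT levels of the introns of *Pou5f1*, *Sall4* and *Lin28a*.

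**Figure D5:**
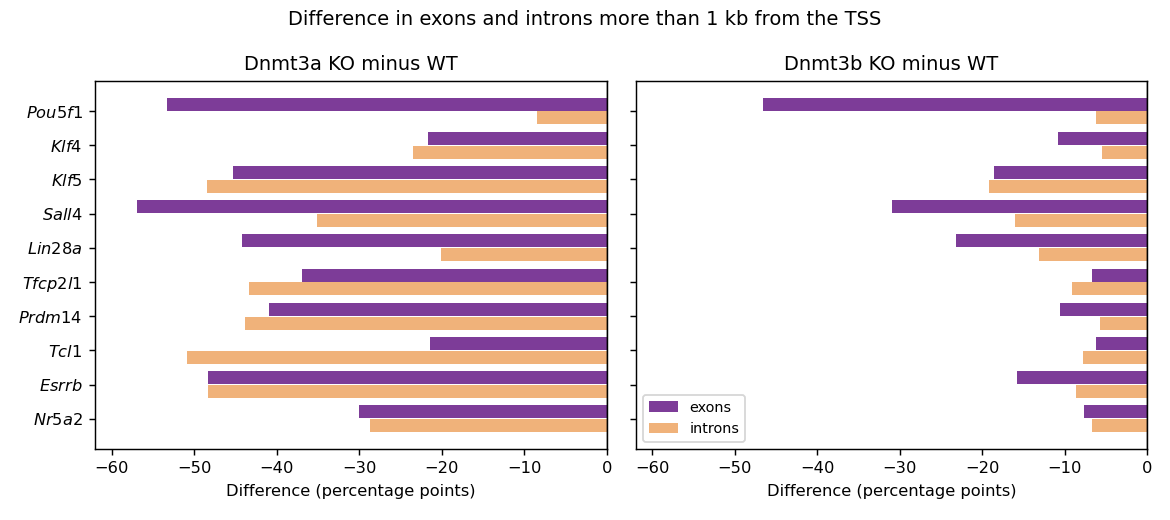
Difference from WT in mean CpG methylation (x axis, percentage points) of exons and introns more than 1 kb from the TSS of the 10 genes, in *Dnmt3a* KO (left) and *Dnmt3b* KO ESCs (right), with 1 pooled value per bar. In *Dnmt3b* KO ESCs the exons of *Pou5f1*, *Sall4* and *Lin28a* pass -20 percentage points, at -46.6, -30.9 and -23.2.

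Single CpGs were then called where the 95% credible interval of the difference in methylation between pooled reads lay wholly beyond 20 percentage points, a comparison of these pooled reads and not of conditions. Of 8415 CpGs at the 10 genes, 3098 (36.8%) were called hypomethylated in *Dnmt3a* KO ESCs, beside 25.7% of all CpGs, and 0 hypermethylated, beside 0.00671%. *Esrrb* held the most CpGs and the highest share, with 1157 (48.5%), and without it the share was 32.2%. *Klf4* had the lowest share, 93 of 490. Without *Dnmt3b* 338 CpGs (4.02%) were hypomethylated, beside 2.16%, and 11 (0.131%) hypermethylated, beside 0.0681%. *Sall4* had the highest share in that line, with 85 CpGs (10.7%). The shares of all CpGs cover the whole shared part and not like windows of other genes, so the sequence compared is unlike.

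Differentially methylated regions (DMRs) were at least 4 consecutive called CpGs, each within 300 bp of the one before. In *Dnmt3a* KO ESCs there were 227 at the 10 genes, holding 19.6% of their CpGs, beside 6.21% of all CpGs. *Esrrb* had 99 of them, 90 in its gene body and the longest of 2283 bp, and without *Esrrb* the share of CpGs in DMRs was 15.1%. *Sall4* followed with 29, *Klf5* with 23 and *Prdm14* with 16, and the other genes had 6 to 14. These counts do not allow for the unlike lengths of the windows or of the DMRs. The DMRs of *Klf5* covered 8304 bp and those of *Sall4* 6891 bp. The 10 DMRs of *Pou5f1* covered 5044 bp, and the 14 of *Nr5a2*, in a longer window, 4741 bp. The *Dnmt3b* KO line had 4 DMRs with 0.226% of the CpGs, beside 0.0438%, 3 at *Sall4* and 1 at *Pou5f1*. For DMRs too, gene windows are set beside all CpGs of the shared part, and no share for like windows of other genes is given.

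The 4 DMRs of *Dnmt3b* KO ESCs are printed because they are the places where this line differed most clearly; they were chosen after their values were seen. They lie in the coding part of an exon of *Pou5f1* (chr17:35646936-35647027, plus strand), in an intron (chr2:168576457-168576584) and a coding exon of *Sall4* (chr2:168581557-168581627), and 2.09 kb before the *Sall4* TSS (chr2:168594759-168594829), the last 3 read on the minus strand.
Pou5f1 exon DMR: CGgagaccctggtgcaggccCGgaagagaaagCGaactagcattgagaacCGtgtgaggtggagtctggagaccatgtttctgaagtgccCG
Sall4 intron DMR: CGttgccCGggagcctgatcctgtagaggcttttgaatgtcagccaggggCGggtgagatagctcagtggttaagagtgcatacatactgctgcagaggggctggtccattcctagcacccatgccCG
Sall4 exon DMR: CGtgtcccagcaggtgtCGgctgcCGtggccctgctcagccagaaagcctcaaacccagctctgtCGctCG
Sall4 upstream DMR: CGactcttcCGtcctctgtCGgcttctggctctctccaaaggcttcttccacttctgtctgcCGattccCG
The 5 CpGs of the *Pou5f1* exon were at a mean of 74.8% in WT, 4% without *Dnmt3a* and 4.11% without *Dnmt3b*, at 6.60 to 15.8 reads per CpG. The interval of the difference between the mutants, -7.99 to 11.8 percentage points, includes 0. These 5 CpGs are among the 19 exonic CpGs of *Pou5f1* above and lie in the window of Pou5f1-007, so those results are not separate. In the *Sall4* exon the means were 97.8%, 21.6% and 27.9%, with an interval of -18.6 to 6.76 between the mutants. The upstream DMR of *Sall4* was at 60.5%, 0% and 6.81%, and the intronic one at 93.2%, 20.02% and 35.8%. In these 2 the *Dnmt3a* KO mean lay under the *Dnmt3b* KO mean, and no interval between the mutants is given for them. The mutants are therefore not shown to be alike there. All 4 DMRs were thus also low in *Dnmt3a* KO ESCs. No share of like regions is given. In that line 84.4% of 500-bp upstream bins of all genes were called lower, so this cannot be read as particular to these sites.

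The other genes of the pathway were a list of 25 regulators and known targets. Of their start sites 6 were called lower without *Dnmt3a* and 0 without *Dnmt3b*, beside 41.4% and 2.71% of all genes. Of their gene bodies 17 and 2 were called, beside 89.2% and 1.4%, and of their upstream regions 25 and 0, beside 95.5% and 0.133%, and none was higher by more than 20 percentage points. Regions under 20% in WT ESCs could not be called by this rule, and the median start site of the 25 was at 7.37%. The bodies of *Sox2*, *Id3*, *Id1*, *Myc*, *Gbx2*, *Mycn* and *Otx2* were at 0.44% to 11.3% in WT ESCs. That of *Zfp281* was at 23.7% and was not called. *Sox2*, the partner of OCT4, had a body at 0.44%, 0.47% and 0.11%, with 20 kb upstream at 40.6%, 11.7% and 33.4% in WT and both KO lines. *Dppa2* and *Dppa4*, neighbouring genes of early embryonic cells, had start sites at 15.9%, 0.42% and 12.2% and at 7.37%, 0% and 1.14%. *Dnmt3l*, the cofactor of both methyltransferases, was at 87.5%, 28.3% and 77.5% at its start site, much as *Esrrb* and *Tcl1* were methylated there in WT ESCs. *Tdh*, threonine dehydrogenase, was at 21.3%, 5.27% and 20.8%. The body of *Zscan10*, a zinc finger factor, was at 50.8%, 11.4% and 23.8%, 1 of the 2 gene bodies called in *Dnmt3b* KO ESCs.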

How the data were processed

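WGBS of 9 J1 ESC libraries, 3 per genotype, was used as 1 merged table each for WT, *Dnmt3a* KO and *Dnmt3b* KO. The authors mapped reads to mm9 with BSMAP, trimmed biased bases, clonal reads and mate overlaps with BSeQC, and tallied reads per CpG with MOABS. The deposited read counts per CpG (all and methylated reads, in total and by strand) were not normalized by the authors. The deposited methylation ratio is a fraction from 0 to 1, which the authors formed as methylated over all reads. Bisulfite conversion does not tell methylcytosine from hydroxymethylcytosine.

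The WT table ends on chromosome 4 at position 140865857, in an incomplete last line that was left out. Values were taken from 13 whole chromosomes and that part of chromosome 4, and what follows was not analysed here. Genes came from the GENCODE annotation of mm9, where *Tfcp2l1* is listed as Tcfcp2l1. Python 3.11.15 was used (NumPy 2.4.6, numba 0.67.0, SciPy 1.17.1), and matplotlib 3.10.9 for figures. Fractions were recomputed from the counts. CpG calls used 2 Beta posteriors with depth scaled to at most 200 reads, and were tested on simulated counts. CpG islands had at least 500 bp, 55% GC and an observed to expected ratio of 0.65. No test over replicates was possible.

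All 10 genes are named, with the upstream bins 1 to 20 kb before the TSS, of at least 3 CpGs, that were lowest in WT and that had the largest fall to *Dnmt3a* KO, and 6 of the 25 other genes. The genes, lists and rules were chosen with earlier results of these data known. Alternatives varied the read minimum, weighting, strand, depth, thresholds, windows and the CpG call.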

Additional observations from a re-analysis of the deposited data

How the results depend on the processing

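No paired analysis was possible because the deposited tables pool the 3 libraries of a genotype, and for the same reason no replicate could be left out in turn. The numbers of genes called in *Dnmt3a* KO ESCs stayed within 1.5 times the reported count under every alternative run, as did the number of DMRs in that line. Among 10 genes, the counts of 7 gene bodies and 9 upstream regions could not rise past that limit, so only a fall was tested there. The isoform alternative moved the TSS of *Sall4* alone. Internal start sites were not used: Esrrb-002, Esrrb-006 and Nr5a2-202 differed by -9.90, -8.84 and -2.74 percentage points, and Esrrb-005 and Esrrb-004 by -34.7 and -69.8. In *Dnmt3b* KO ESCs, where 0 start sites, gene bodies and upstream regions were called, start sites numbered 1 with a minimum of 10 reads, 1 with plus strand reads, 1 with minus strand reads and 3 with a difference of more than 10 percentage points. Gene bodies numbered 1 with 10 reads, 1 by the share of methylated reads, 2 outside CpG islands, 2 with plus strand reads and 5 with more than 10 percentage points, and upstream regions 2 with more than 10 percentage points. No share of all genes is given beside these counts, so they cannot be read as particular to the 10 genes. The median *Dnmt3b* KO difference of all gene bodies was -6.66 percentage points. The share of CpGs called hypomethylated in *Dnmt3a* KO ESCs was 27.6% with a 99% credible interval (16.9% of all CpGs), 49.8% with a credible difference of 0.1 (40.9%), 40.9% with 10 reads (28.9%), 35.7% with reads thinned to the lowest mean depth of the lines (24.6%), 56.2% with Fisher's exact test (48.9%) and 32.2% without *Esrrb*, an alternative chosen after seeing the data. In *Dnmt3b* KO ESCs it was 2.01% with the 99% interval (1.01% of all CpGs), 8.64% with a difference of 0.1 (5.63%) and 6.31% with Fisher's exact test (3.89%). DMRs of *Dnmt3b* KO ESCs numbered 14 with at least 3 consecutive CpGs and 2 with the 99% interval, also without a share of all CpGs. Of 404 single-gene differences under alternatives, 0 called ones lost their call or changed sign and 19 newly passed the rule. Differences that were not called changed sign in 17, all at start sites, such as -1.65 to 1.72 percentage points at *Klf5* without *Dnmt3b* by read share and 0.78 to -0.48 at *Klf4* without *Dnmt3a* with 10 reads. The causes were not tested.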
